A study of Mus musculus with 7 samples.

Results

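The Myc, Max and Mxd network was described here by 10 genes: the activators Myc, Mycn and Mycl, their shared partner Max, and the Max-binding antagonists Mxd1, Mxd3, Mxd4, Mxi1, Mnt and Mga. These are the rows of the expression table whose Ensembl identifiers carry those symbols in GENCODE mouse release M21, and the rule that selects them uses no measured value. The members themselves were chosen with earlier results of these data known. All 10 are among the 55855 gene identifiers in the table, and all 10 were among the 13948 genes tested. RNA had been sequenced from hematopoietic stem cells (HSCs) of mouse bone marrow, in 3 libraries labelled Fth1fl/fl (floxed Fth1, WT in the series text, called control here) and 4 labelled Fth1△/△ (Fth1-deleted). Fth1 encodes the heavy chain of ferritin, the shell in which cells store iron, and the series text describes its conditional deletion in the hematopoietic system. All mice were aged 2 months. The Cre driver, the exons removed and the sort markers were not given in the sources used here, and no label ties a library to its own mouse. All p-values below therefore measure only the spread between these libraries, which may be technical.

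Max is a small basic helix-loop-helix leucine zipper protein that pairs with every other protein of the network. A Myc-Max pair binds E-box DNA and recruits coactivators, which raises transcription of genes for ribosome building, nucleotide supply and growth. Pairs of Max with an Mxd protein, Mxi1 (also called Mxd2) or Mnt bind the same DNA and recruit Sin3 and histone deacetylases, and Mga brings Max into a Polycomb-type repressor complex. In the bone marrow, Myc is known for moving HSCs out of the stem cell niche into differentiation, and Myc and Mycn together are known to sustain HSC survival and proliferation. In cultured cells Myc has been reported to lower Fth1 RNA and to raise the RNA of the iron regulatory protein gene Ireb2.

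The highest-affinity E-box, CACGTG, reads the same on both strands, and it was searched for as the DNA element that the members' own proteins bind. RefSeq promoter windows of GRCm38.p6, covering 250 bases before to 50 after a start site, were matched for 9 of the 10 members and not for Myc. The motif was present in the windows of 3 of these 9 members (33.3%), against 2187 of 27025 genes with a window (8.09%). That background includes genes not tested here. Among tested protein-coding genes with a window the share was larger, with 1085 genes holding the motif and 8065 without it. The stretches around the motif in Max, Mnt and Mxd4 are shown because these members encode proteins of the very pairs that bind it. Those of Cdk4, Nme1 and Hspd1 are shown as examples from the genes known to be induced by Myc that are described further down. Each is written 5′ to 3′ on the gene's strand, with the motif in capitals.
Max (chr12:76962234-76962263, minus strand): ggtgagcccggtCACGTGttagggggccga
Mnt (chr11:74830789-74830818, plus strand): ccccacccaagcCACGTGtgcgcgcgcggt
Mxd4 (chr5:34187912-34187941, minus strand): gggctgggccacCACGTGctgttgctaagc
Cdk4 (chr10:127063512-127063541, plus strand): aagggtgaagatCACGTGtccagaacgtcc
Nme1 (chr11:93968273-93968302, minus strand): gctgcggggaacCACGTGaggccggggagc
Hspd1 (chr1:55088306-55088335, minus strand): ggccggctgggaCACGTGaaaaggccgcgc

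The motif's leading base was at position -3 from the RefSeq start site of Max, at -123 in Mnt and at -219 in Mxd4. For Max, the GENCODE gene starts further downstream, at 76962201, so the distance depends on the start site used. In the windows of Mycn, Mycl, Mxd1, Mxd3, Mxi1 and Mga these 6 letters were not found. A match is only a description of the letters, since no binding was measured in these libraries.

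Libraries held 12058392 to 15453168 counted reads, and 4 of their properties touch what follows. Fth1 itself had 552, 659 and 638 FPKM (fragments scaled to gene length and to the library's reads) in control 1, 2 and 3, and 202, 333, 358 and 114 in Fth1-deleted 1, 2, 3 and 4. Ribosomal RNA genes held 0.280% to 1.16% of the FPKM sum in control and 1.42% to 1.52% in Fth1-deleted libraries, without overlap (two-sided exact permutation test, p = 0.0286, the smallest that 35 splits can give). Y-linked reads were present in control 2 and in Fth1-deleted 1, 2 and 3, and were at 0 in the other 3 libraries. Control 2 stood apart on the main axis of variation between libraries, at -101 against -15.1 to 39.4. Of 12 HSC markers, 11 were above 0 in every library and Hoxb5 was at 0 in Fth1-deleted 2.

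No network gene passed the test of Fth1-deleted against control HSCs. Differences are Fth1-deleted minus control on log2(FPKM + 1), tested by limma over all 13948 genes averaging 1 FPKM or more and adjusted by Benjamini-Hochberg, with calls at an adjusted p below 0.05. Of the 10 members 0 were called, and 0 had an unadjusted p under 0.05. Among all genes tested 8 (0.0574%) were called and 1371 (9.83%) had an unadjusted p under 0.05, so a count of 0 among 10 genes is near the background. Nor was there a member whose control and Fth1-deleted libraries failed to overlap, against 9.65% of all genes (4.10% with Fth1-deleted higher and 5.55% with it lower). The differences ran from -0.59 for Mga to 1.11 for Mxd3, with a median of 0.03 over the 10 members and -0.02 over all genes. In bulk RNA such as this, fewer cells of a type and less RNA per cell cannot be told apart.

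**Figure D1:**
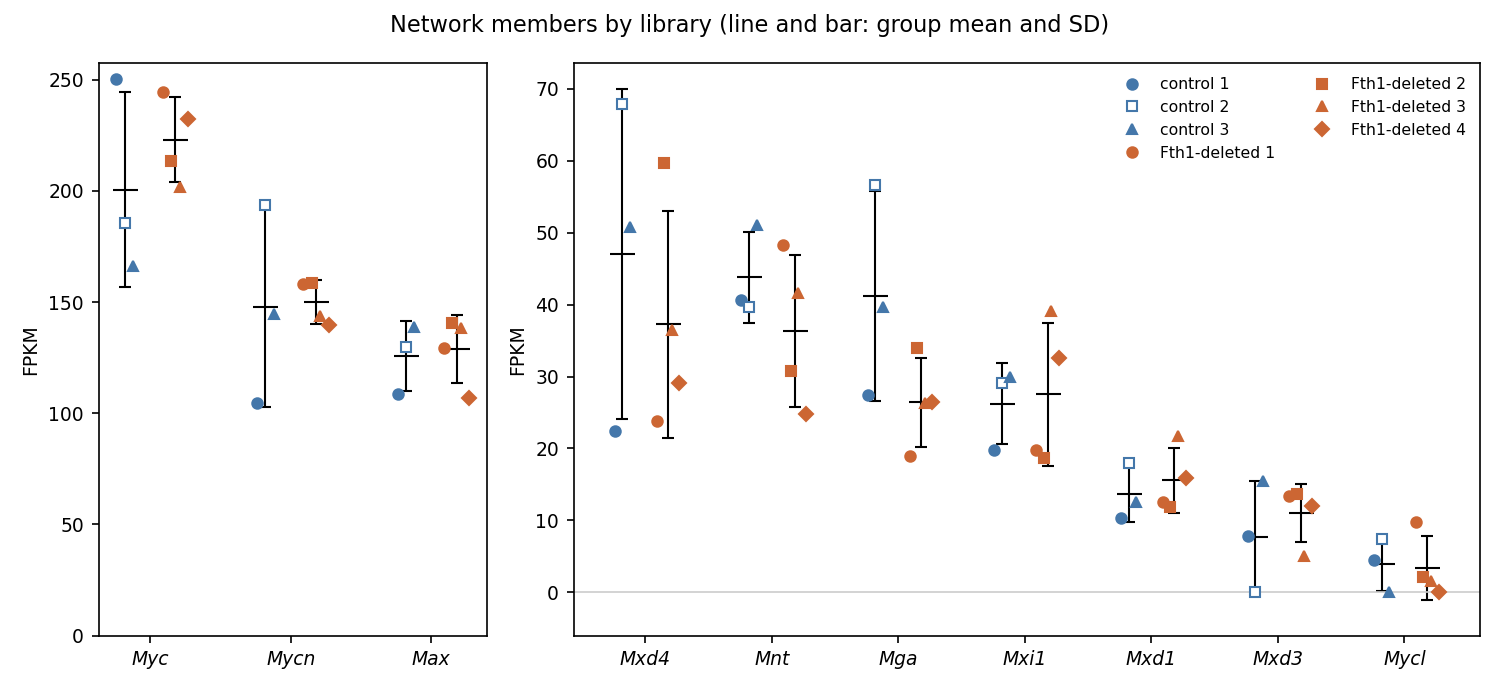
FPKM of each network gene (vertical axes, FPKM, with a different range in each panel) in the 3 control libraries (blue, control 2 open) and the 4 Fth1-deleted libraries (orange), with group means and SD in black. Groups overlap for every gene, Myc lies between 166 and 250 FPKM, and the open square of control 2 is the highest point of Mycn, Mxd4 and Mga and sits at 0 for Mxd3.

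Myc (ENSMUSG00000022346, GRCm38 chr15:61985391-61990374, plus strand), the member with the highest mean, was abundant in every library. Its FPKM was 250, 186 and 166 in control 1, 2 and 3 and 244, 213, 202 and 232 in Fth1-deleted 1, 2, 3 and 4, from 3393 to 6402 reads. Control 1 was above all Fth1-deleted libraries and control 2 and 3 were below them. The means were 201 ± 44.0 (SD, n = 3) and 223 ± 19.1 (SD, n = 4). The log2 difference was 0.17 (SE 0.18, 95% interval -0.23 to 0.57, limma adjusted p = 0.784), so that the interval spans folds from 0.851 to 1.49. Without control 1 the difference was 0.34, and without control 3 it was 0.04.

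Mycn (ENSMUSG00000037169, chr12:12936093-12941914, minus strand), the paralogue that can stand in for Myc in HSCs, was almost as abundant. Its FPKM was 105, 194 and 145 in the controls against 158, 159, 144 and 139 in Fth1-deleted HSCs. The control libraries held both the lowest and the highest value, and the Fth1-deleted libraries lay between them. The means were 148 ± 44.7 (SD, n = 3) and 150.01 ± 9.92 (SD, n = 4), and the log2 difference was 0.07 (SE 0.21, 95% interval -0.40 to 0.53, limma adjusted p = 0.938), with a sign that turned under quantile normalization and TPM scaling.

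Mycl (ENSMUSG00000028654, chr4:122995652-123002485, plus strand), the third activator, had the lowest mean of the network. Its FPKM was 4.45, 7.36 and 0 in the controls against 9.84, 2.10, 1.55 and 0 in Fth1-deleted HSCs. Both groups thus held a library with no read and a library with over 100, from 190 reads in control 2 and 261 in Fth1-deleted 1 to 0 in control 3 and Fth1-deleted 4. A count of 0 there allows up to 3 reads, or 0.145 FPKM in control 3 and 0.118 in Fth1-deleted 4, which covers counting error only. The log2 difference was -0.23, with a 95% interval from -2.29 to 1.82 (limma adjusted p = 0.9505). Counting alone would give a coefficient of variation (SD over mean) of 10.5% at the mean number of Mycl reads, and 94.2% was seen between control and 131% between Fth1-deleted libraries.

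Within the activators, the balance of Myc to Mycn differed more between control libraries than between Fth1-deleted ones. The ratio of Myc to Mycn FPKM was 2.39, 0.958 and 1.15 in control 1, 2 and 3, and 1.54, 1.35, 1.40 and 1.67 in Fth1-deleted 1, 2, 3 and 4. Control 1 had the most Myc and the least Mycn of all libraries, and control 2 was the only library with more Mycn than Myc. The sum of both genes moved less, from 311 to 379 FPKM in control and from 345 to 403 FPKM in Fth1-deleted libraries. Myc made up 47.98% to 69.7% of activator FPKM in control and 57.04% to 62.5% in Fth1-deleted libraries.

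Max (ENSMUSG00000059436, chr12:76937269-76962201, minus strand), without which none of the other proteins forms its usual DNA-binding pair, was the steadiest member among control libraries. Its FPKM was 109, 130 and 139 in the controls against 129, 141, 138 and 107 in Fth1-deleted HSCs. Low and high values occurred in both groups, with Fth1-deleted 4 and control 1 lowest. The coefficient of variation was 12.4% in control and 11.9% in Fth1-deleted, against medians of 27.7% and 23.3% over the 8216 genes with a mean of at least 10 FPKM. The log2 difference was 0.03 (SE 0.19, 95% interval -0.37 to 0.44, limma adjusted p = 0.964), with a sign that turned under quantile normalization and TPM scaling. The other 9 genes together had 3.67 to 4.79 times the FPKM of Max in single libraries, a ratio of RNA that says nothing of protein.

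The 4 Mxd-type repressors, which are known from cells that leave the cycle and differentiate, differed in level and in spread. Mxd4 (ENSMUSG00000037235, chr5:34173883-34187720, minus strand) had the highest mean of them, at 22.5, 67.9 and 50.8 FPKM in the controls against 23.9, 59.7, 36.4 and 29.0 in Fth1-deleted HSCs. It was lowest in control 1 and Fth1-deleted 1, the libraries with the most Myc, and highest in control 2 and Fth1-deleted 2. Its log2 difference was -0.28 (SE 0.40, 95% interval -1.15 to 0.59, limma adjusted p = 0.838) and turned to 0.05 without control 2.

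Mxi1 (ENSMUSG00000025025, chr19:53310518-53375810, plus strand), named for its interaction with Max, had 19.7, 29.1 and 29.9 FPKM in the controls against 19.8, 18.7, 39.0 and 32.6 in Fth1-deleted HSCs. The Fth1-deleted libraries split into a low pair and a high pair on either side of the control mean, which leaves a log2 difference of 0.02 (95% interval -0.71 to 0.76, limma adjusted p = 0.986), with a sign that turned under TPM scaling. Mxd1 (ENSMUSG00000001156, chr6:86647042-86669161, minus strand), also known as Mad1, had 10.4, 18.0 and 12.5 FPKM in the controls against 12.6, 11.9, 21.8 and 15.9 in Fth1-deleted HSCs. Fth1-deleted 3 was highest for both genes, and for neither did the groups separate (Mxd1 log2 difference 0.17, 95% interval -0.64 to 0.99, limma adjusted p = 0.899).

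Mxd3 (ENSMUSG00000021485, chr13:55325168-55329823, minus strand), the family member known for expression in S phase, had 7.88, 0 and 15.4 FPKM in the controls against 13.4, 13.7, 5.01 and 12.05 in Fth1-deleted HSCs. It had no read in control 2, where 3 reads would be 0.158 FPKM, and 81 to 261 reads in each other library. The log2 difference of 1.11 had a 95% interval from -0.68 to 2.90 (limma adjusted p = 0.690). It was -0.09 without control 2 and 1.93 without control 3, 5.01 with the ribosomal RNA share as a covariate (95% interval 2.95 to 7.07, limma adjusted p = 0.0826) and 1.87 with a term for Y-linked reads (95% interval 0.21 to 3.53, limma adjusted p = 0.368). The ribosomal RNA share did not overlap between the groups, so that fit cannot cleanly separate it from the deletion. Among controls the share was highest in control 2 (1.16%), where Mxd3 had no read. Such a gap was not peculiar to Mxd3: of 3369 protein-coding genes with a mean of 5 to 20 FPKM, 98 (2.91%) were at 0 in a single library and had at least 80 reads in every other. Of these gaps, 20, 27 and 27 were in control 1, 2 and 3, and 2, 4, 10 and 8 in Fth1-deleted 1, 2, 3 and 4. The end of Mxd3 overlaps by 105 bases that of Prelid1 on the other strand (mean 90.04 FPKM), and reads of that stretch cannot be told apart where the counting did not use strand, which is not stated.

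Mnt and Mga, the large antagonists, were the pair of members with negative differences for which no scaling alternative and no left-out library turned the sign. Mnt (ENSMUSG00000000282, chr11:74830920-74845725, plus strand), known for competing with Myc for Max in dividing cells too, had 40.6, 39.7 and 51.1 FPKM in the controls against 48.2, 30.7, 41.5 and 24.8 in Fth1-deleted HSCs. Fth1-deleted 2 and 4 lay below all controls and the other 2 within their range. The log2 difference was -0.30 (SE 0.28, 95% interval -0.91 to 0.32, limma adjusted p = 0.748).

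Mga (ENSMUSG00000033943, chr2:119897228-119969581, plus strand), which also carries a T-box domain, came nearest to a difference. Its FPKM was 27.4, 56.5 and 39.6 in the controls against 18.9, 34.0, 26.3 and 26.4 in Fth1-deleted HSCs. Fth1-deleted 1, 3 and 4 lay below every control, and Fth1-deleted 2 lay between control 1 and control 3. The means were 41.2 ± 14.6 (SD, n = 3) and 26.4 ± 6.16 (SD, n = 4), and the log2 difference was -0.59 (SE 0.32, 95% interval -1.28 to 0.10, limma unadjusted p = 0.0858, adjusted p = 0.584). Without control 2, its highest library, the difference was -0.34 (limma adjusted p = 0.785). Without control 1, its lowest control, it was -0.85 (95% interval -1.56 to -0.13, limma adjusted p = 0.356), and with the ribosomal RNA share as a covariate it was -1.37 (95% interval -2.62 to -0.12, limma adjusted p = 0.364). That share did not overlap between the groups, so the latter fit cannot cleanly separate it from the deletion. The 21 alternatives gave adjusted p-values of 0.356 to 0.817.

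**Figure D2:**
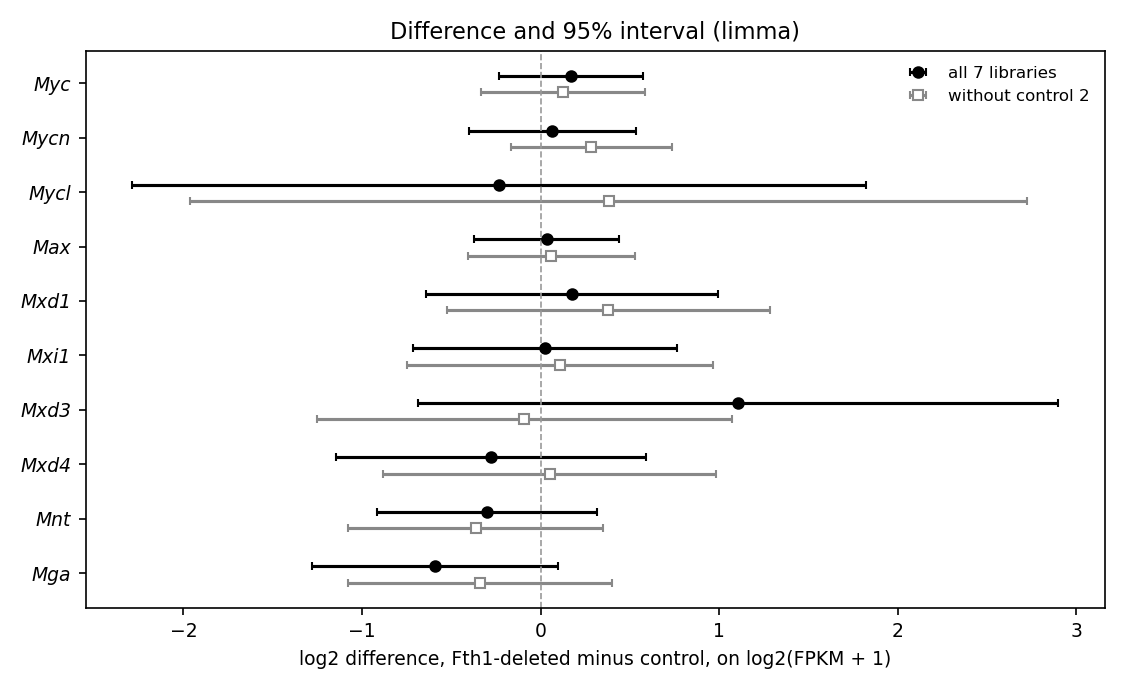
Log2 difference of each network gene, Fth1-deleted minus control on log2(FPKM + 1) (horizontal axis), with its 95% interval from limma, for all 7 libraries (black circles) and without control 2 (grey squares). Every interval spans 0; those of Myc and Max are the narrowest with all libraries, those of Mycl and Mxd3 the widest, and Mxd3 moves from 1.11 to -0.09 without control 2.

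Libraries with and without Y-linked reads were also compared apart, as 3 Fth1-deleted against 1 control and as 1 against 2. The sign of the difference was the same in both for 6 of the 10 members and not for Mycn, Max, Mxd1 and Mxi1. Myc differed by 0.24 with Y-linked reads and by 0.19 without, Mnt by -0.01 and -0.85, and Mga by -1.11 and -0.31. Mxd3 differed by 3.44 and 0.11, where the larger value rests on control 2 with no read. These values have no test, since each rests on a group of 1 library.

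By mean FPKM over the 7 libraries, a scale that divides by a gene's mean transcript length, the order was Myc (213), Mycn (149), Max (127), Mxd4 (41.5), Mnt (39.5), Mga (32.7), Mxi1 (26.99), Mxd1 (14.7), Mxd3 (9.63) and Mycl (3.61). Only the step from Max to Mxd4 separated neighbours whose ranges do not overlap, at 107 or more against 67.9 or less. Myc exceeded Mycn in 6 of 7 libraries and Mxi1 exceeded Mxd1 in 7 of 7, although the ranges of each pair overlap. Mxd4, Mnt, Mga and Mxi1 changed places from library to library, with Mxd4 above Mnt in 3 of 7. The order between genes depends on the length used, here the mean over all annotated transcripts of a gene, expressed or not. In reads, Mga had 1445 to 4199 per library and Max 1438 to 1905.

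The summed FPKM of the network was nearly the same in both groups, at 658 ± 66.1 (SD, n = 3) in control and 659 ± 29.1 (SD, n = 4) in Fth1-deleted. Activators over antagonists, by summed FPKM, came to 2.80, 1.83 and 1.56 in control 1, 2 and 3 and to 3.01, 2.22, 2.04 and 2.64 in Fth1-deleted 1, 2, 3 and 4. Control 1 lay among the Fth1-deleted libraries and the other controls lay below them. Mga held 19.9% to 26.8% of antagonist FPKM in control and 13.8% to 20.2% in Fth1-deleted libraries. These ratios reuse the values above, with the same length scale, and were not tested.

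**Figure D3:**
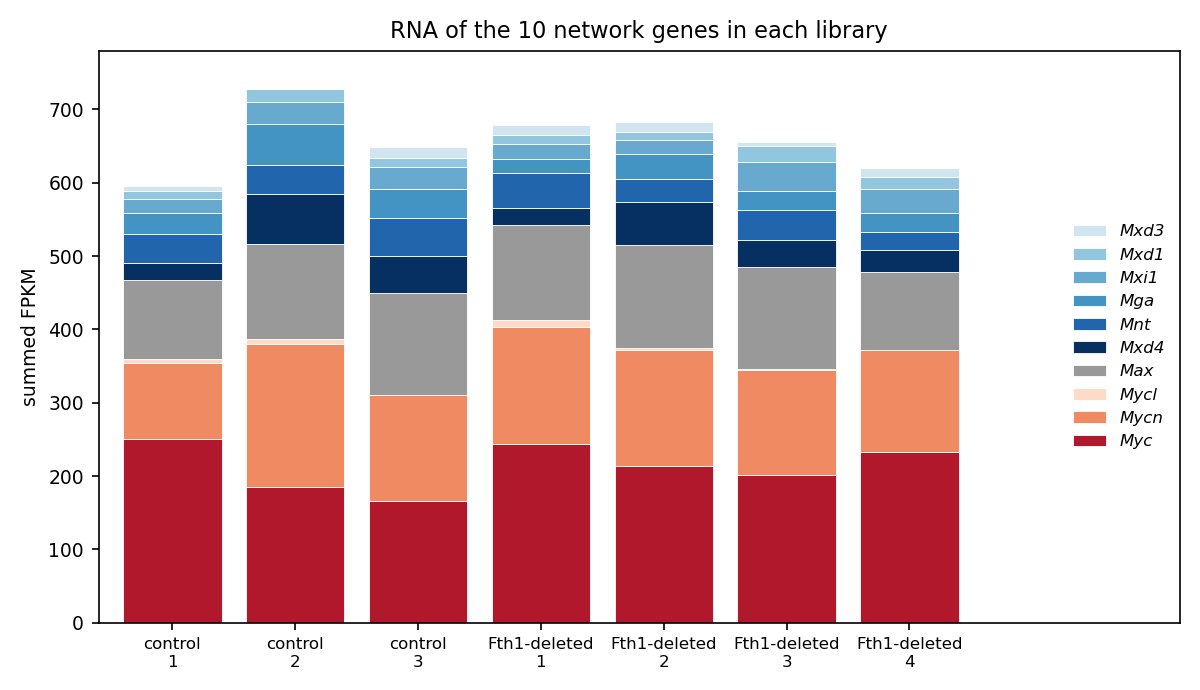
Summed FPKM (vertical axis, from 0) of the 10 network genes in each library, stacked from Myc at the base through the other activators (reds) and Max (grey) to the antagonists (blues). Activators outweigh antagonists in every bar, the total runs from 596 in control 1 to 728 in control 2, and the dark blue band of Mxd4 is thin in control 1 and Fth1-deleted 1.

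The genes most like Myc across the 7 libraries, among 9384 protein-coding genes with a mean of at least 5 FPKM, were D16Ertd472e, Tab1, Ndufs8, Tmem60 and Ankle1. Pearson's r with Myc on log2(FPKM + 1) was 0.98, 0.97, 0.97, 0.97 and 0.97. They were picked for that value from many, and all points share the same libraries, so no p is given. Ndufs8, a subunit of respiratory complex I, had 117, 69.9 and 53.9 FPKM in the controls against 112, 93.2, 70.8 and 119 in Fth1-deleted HSCs. Like Myc, all 5 genes were lowest in control 3.

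Genes known to be induced by Myc were mostly a little higher in Fth1-deleted HSCs, though none of the 36 passed the test. The list covers ribosome building (such as Ncl, Npm1, Fbl), polyamine and nucleotide synthesis (Odc1, Srm, Cad), amino acid transport (Slc7a5, Slc3a2, Slc1a5) and protein folding (Hspd1, Hspe1). Of the 36, limma called 0 in either direction, 9 had an unadjusted p under 0.05, and 32 had a positive difference, against 48.7% of all genes. The median was 0.36, where all genes had -0.02. Libraries of the groups did not overlap for 5 of the 36 genes (Nop58, Gnl3, Mrto4, Nme1 and Hspd1), each with Fth1-deleted higher. Among all genes tested, 4.10% had Fth1-deleted higher without overlap.

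Hspd1, the mitochondrial chaperonin, had 322, 179 and 318 FPKM in the controls against 492, 376, 444 and 461 in Fth1-deleted HSCs (log2 difference 0.74, limma adjusted p = 0.306). Nop58, a core protein of the box C/D particles that guide methylation of ribosomal RNA, had 131, 115 and 112 and then 206, 162, 189 and 178 (log2 difference 0.62, limma adjusted p = 0.289). Every Fth1-deleted library exceeded every control for these genes, yet neither passed over all genes tested. Among the 4 genes of the list with a negative difference was Tfap4, with -0.57 (limma adjusted p = 0.660), itself a transcription factor gene induced by Myc. The largest positive value was that of Mthfd2, an enzyme of mitochondrial one-carbon metabolism, with 1.76 (limma adjusted p = 0.345). Its 23.2, 16.6 and 3.65 FPKM in the control libraries overlapped the 56.5, 19.6, 58.4 and 46.2 of the Fth1-deleted libraries. Gnl3, Mrto4, Nme1, Tfap4 and Mthfd2 were named after their values were seen.

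The mean of log2(FPKM + 1) over the 36 genes was 7.25, 6.89 and 7.03 in control 1, 2 and 3 and 7.61, 7.14, 7.38 and 7.60 in Fth1-deleted 1, 2, 3 and 4. Control 1, the library with the most Myc, was above Fth1-deleted 2, so that the groups overlapped. Without control 2 the median difference was 0.21 and 31 of 36 were positive. Taken apart, libraries with Y-linked reads gave a median of 0.55 and those without gave 0.44. With the share of ribosomal RNA as a covariate, the median was 0.71, but that share did not overlap between the groups.

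Markers of dividing cells had positive differences beside those of the Myc-induced genes. All 10 of them (Mki67, Top2a, Rrm2 and others) had a positive difference, with a median of 0.62 and 0 called by limma, and 4 had an unadjusted p under 0.05. Rrm2, a subunit of ribonucleotide reductase, had 72.5, 56.0 and 54.8 FPKM in the controls against 124, 113, 138 and 147 in Fth1-deleted HSCs (log2 difference 1.09, limma adjusted p = 0.0918). The list's mean log2 level was 6.75 in control 1, as in the Fth1-deleted libraries (6.71 to 6.83), and 5.58 and 5.82 in control 2 and 3. Without control 2 the median was 0.28, and without control 1 it was 1.07. The part of dividing cells in the values of the Myc-induced genes was not tested.

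Of the 36 Myc-induced genes, 27 had a promoter window and 10 of these (37.0%) held CACGTG, with 4 copies in Cdk4 and 3 in Apex1. Cdk4, the kinase that opens the G1 phase, had 336, 287 and 339 FPKM in the controls against 448, 331, 375 and 512 in Fth1-deleted HSCs (log2 difference 0.36, limma adjusted p = 0.559). Apex1, a DNA repair enzyme, had a log2 difference of -0.20 (limma adjusted p = 0.853). Wdr43, also with the motif, had -0.18. The others of the 10, among them Cdk4, Nme1 and Hspd1 with stretches printed above, had positive differences. Among tested protein-coding genes with a window, the 1085 with the motif in a window had a median difference of -0.01 and the 8065 without it -0.02. Cdk4 and Apex1 were picked for their motif counts, and Wdr43 was named after its value was seen.

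Genes known to be repressed by Myc showed no common direction. Of the 9, Cdkn2b was at 0 in every library, 8 were tested, limma called 0, and 4 had a positive difference, with a median of 0.03 and 2 with an unadjusted p under 0.05. Cdkn1a, the cell cycle inhibitor p21, had 4.14, 2.08 and 0 FPKM in the controls against 18.8, 6.83, 4.66 and 5.04 in Fth1-deleted HSCs. All Fth1-deleted libraries were above all controls, with Fth1-deleted 1 far above the rest (log2 difference 1.77, limma adjusted p = 0.450). Such a separation with Fth1-deleted higher was seen in 4.10% of all genes tested. Ndrg1, a stress response gene, had 87.5, 142 and 127 FPKM in the controls against 45.97, 80.7, 118 and 58.8 in Fth1-deleted HSCs, with overlap (log2 difference -0.70, limma adjusted p = 0.489).

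Of the 7 lists of genes that work with the network or respond to it, only that of the parallel Mlx branch held a called gene. The lists were chosen with earlier results of these data known, so a call or a median within a list is no independent support for it. Mlx is a Max-like protein that pairs with the glucose sensors Mlxip (MondoA) and Mlxipl (ChREBP) and with some Mxd proteins and Mnt, and Txnip and Arrdc4 are its best known targets. Txnip, which restrains glucose uptake and thioredoxin, fell by 1.10 on the log2 scale, and 0 of the other 3 genes tested passed (limma adjusted p = 0.0318). Its FPKM was 680, 943 and 904 in the controls against 391, 385, 402 and 381 in Fth1-deleted HSCs, which differed little among themselves. The call was lost in 13 of 21 alternatives, with a log2 difference of -1.30 to -1.01 and an adjusted p of 0.019 to 0.684 over all of them, and with each library other than control 1 left out.

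Arrdc4, the arrestin-like relative of Txnip, had 30.8, 40.6 and 43.99 FPKM in the controls against 17.2, 15.5, 15.5 and 12.6 in Fth1-deleted HSCs. The groups did not overlap, but the difference of -1.28 did not pass (limma adjusted p = 0.193). Of all genes tested, 5.55% had Fth1-deleted lower without overlap. Mlx had 0, 11.0 and 16.8 FPKM in the controls against 18.2, 27.5, 16.96 and 18.1 in Fth1-deleted HSCs, and its difference of 1.80 includes the 0 of control 1 (limma adjusted p = 0.493). Its groups narrowly failed to overlap, with Fth1-deleted higher, which was so for 4.10% of all genes tested. Mlxip, the sensor that was expressed, differed by -0.16 (limma adjusted p = 0.893), and Mlxipl was at 0 in all libraries. Arrdc4, Mlx and Mlxip were named after their values were seen. The median of the 4 tested genes of this list was -0.63.

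**Figure D4:**
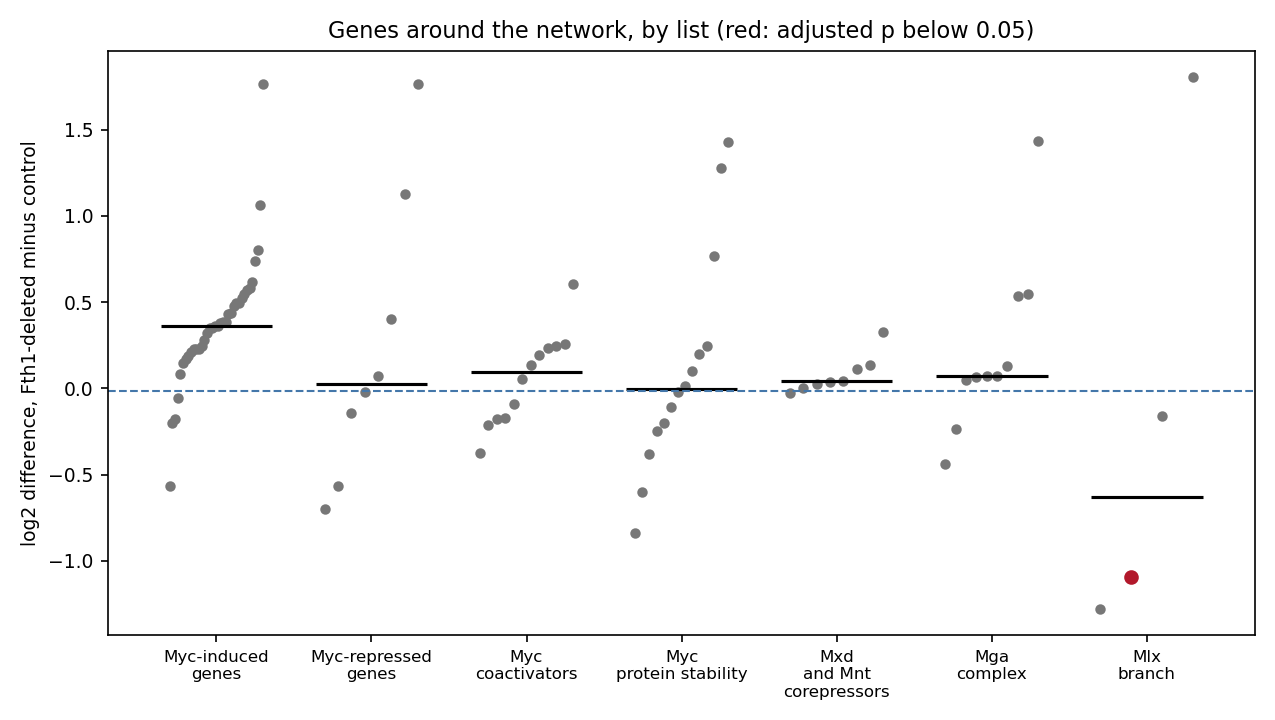
Log2 difference, Fth1-deleted minus control on log2(FPKM + 1) (vertical axis), of every tested gene in 7 lists around the network, with each list's median as a black bar, the median of all genes (-0.02) as a dashed line and the called gene, Txnip, in red. The points of the Myc-induced genes lie mostly above the dashed line (median 0.36), while the medians of the corepressors (0.04) and the coactivators (0.09) lie near it.

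Genes for the proteins that the network recruits stayed near the middle of all genes, with 0 called by limma in each of these lists. The 8 corepressor genes of Mxd proteins and Mnt had a median difference of 0.04, with 7 positive and 0 at an unadjusted p under 0.05. Rbbp4, a histone chaperone of the Sin3 complex, had the smallest p, with a difference of 0.33 (limma adjusted p = 0.684), and for Suds3 it was 0.13 (limma adjusted p = 0.865). The 12 coactivator genes had a median of 0.09, with 7 positive and 1 at an unadjusted p under 0.05. That was Actl6a, a subunit of the BAF and TIP60 complexes, with 66.5, 46.5 and 63.6 FPKM in the controls against 116, 86.6, 86.9 and 72.0 in Fth1-deleted HSCs (log2 difference 0.61, limma adjusted p = 0.436). In 2 of the 12, Actl6a and Ruvbl1, the groups did not overlap, with Fth1-deleted higher, against 4.10% of all genes. Ruvbl1, named after its values were seen, had 107 to 116 FPKM in control and 118 to 151 in Fth1-deleted libraries. Trrap, the scaffold that Myc binds, differed by -0.37 (limma adjusted p = 0.619).

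The Mga complex, the variant Polycomb complex in which Mga and Max sit, had a median of 0.07 over 10 genes, with 8 positive and 0 called by limma. Of the 10, 3 had an unadjusted p under 0.05, against 9.83% of all genes tested. Its mean log2 level was 5.32, 5.45 and 5.42 for control 1, 2 and 3 and 5.69, 5.48, 5.68 and 5.64 for Fth1-deleted 1, 2, 3 and 4. The groups did not overlap in that mean, narrowly, nor in summed FPKM (542 to 629 and 669 to 777), which was not tested. The FPKM sum of all genes was itself larger in every Fth1-deleted library (762953 to 832377, against 740351 to 757010 in control). With TPM scaling, which sets these sums equal, the list's median was -0.003 with 4 of 10 positive, where all genes had a median of -0.09. L3mbtl2, a chromatin reader of the complex, had 4.78, 12.2 and 13.7 FPKM in the controls against 29.9, 29.2, 34.2 and 17.8 in Fth1-deleted HSCs. All Fth1-deleted libraries were above all controls (log2 difference 1.43, limma adjusted p = 0.297), while Mga itself had its negative difference. Cbx3, the heterochromatin protein HP1 gamma, had 171, 112 and 162 and then 193, 223, 226 and 207 FPKM, again without overlap (log2 difference 0.54, limma adjusted p = 0.410). These were the 2 of the 10 genes without overlap, against 4.10% of all genes tested with Fth1-deleted higher.

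Myc protein turns over fast, and 14 genes that control its stability were read as the nearest measure of that step in RNA. Limma called 0, 7 were positive, the median was -0.00, and 1 had an unadjusted p under 0.05. Fbxw7, the ubiquitin ligase that marks phosphorylated Myc for destruction, differed by -0.25 (limma adjusted p = 0.858) and is named here for that role. Plk1, a mitotic kinase that also opposes Fbxw7, had 49.3, 11.1 and 13.6 FPKM in the controls against 58.95, 37.9, 56.2 and 71.4 in Fth1-deleted HSCs, and is among the dividing cell markers too. Control 1 lay among the Fth1-deleted libraries (log2 difference 1.43, limma adjusted p = 0.339), and without it the difference was 2.07 and the limma adjusted p 0.0496, where the alternatives gave 0.0496 to 0.684. Cip2a, which shields Myc from a phosphatase, differed by 0.77 (limma adjusted p = 0.540). Protein was not measured.

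Of the iron genes tied to Myc, 3 were read and limma called 0, with 1 at an unadjusted p under 0.05. That was Fth1, the deleted gene, with a difference of -1.42 (limma adjusted p = 0.193). Tfrc, the transferrin receptor and a Myc target, had 59.7, 22.0 and 30.9 FPKM in the controls against 58.7, 37.2, 55.1 and 54.5 in Fth1-deleted HSCs. Control 1 was again level with the Fth1-deleted libraries (log2 difference 0.54, limma adjusted p = 0.628). Ireb2 differed by 0.03 (limma adjusted p = 0.978), with overlapping groups.

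Markers of HSCs and of other cell types were read beside the network. The 12 HSC markers had a median difference of -0.54, with 11 of 12 negative and 1 called lower by limma, and their summed FPKM was 1038 to 1658 in control and 712 to 955 in Fth1-deleted libraries. Neutrophil and monocyte markers summed to 366 to 598 FPKM in control and 375 to 802 in Fth1-deleted libraries. Of the 11 tested, 8 were positive with a median of 2.16, and 5 had an unadjusted p under 0.05. Mpo, a granule enzyme, had 2.33, 3.63 and 0.255 FPKM in the controls against 23.4, 15.4, 84.2 and 135 in Fth1-deleted HSCs (log2 difference 4.11, limma adjusted p = 0.0803).

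Elane and Ctsg, further granule proteases, were at 0 in all controls and in Fth1-deleted 1 and 2, and were named after their values were seen. B cell markers summed to 12.1 to 26.2 FPKM in control and 24.2 to 87.8 in Fth1-deleted libraries, with 7 of 7 tested positive. Erythroid markers summed to 369 to 856 and 350.0 to 833 FPKM, megakaryocyte markers to 608 to 914 and 912 to 1095, mast cell and basophil markers to 292 to 384 and 358 to 450, and T and NK cell markers to 22.4 to 120 and 84.4 to 143, in the same order of groups. Among these lists of other cell types 0 genes were called by limma, with 1 or 2 at an unadjusted p under 0.05 in each list after the neutrophil and monocyte markers, and Cd3e, Mcpt8, Prss34, Fcnb and Gp1bb were at 0 in every library. The part of such cells in the network values was not tested.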

How the data were processed

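Per the series text and the submitters' processing notes, reads were aligned to GRCm38 with HISAT2 2.0.4 and counted per gene with HTSeq 0.9.1, and the authors deposited FPKM, computed from gene length and reads. The annotation release and strand setting were not given in the sources used here. The labels give 1 µg of polyA RNA per library and the NEBNext Ultra RNA kit. Of 55855 identifiers, 55480 matched GENCODE M21. Deposited FPKM times mean transcript length fell on whole reads (98.93% to 99.48% of values under 50 reads, within 0.05), which gave the depth. Genes averaging 1 FPKM or more were tested as log2(FPKM + 1) with limma 3.58.1 (limma-trend, two-sided) in R 4.3.3, a script tested on simulated data. Near copies and overlapping genes of the members were searched in GENCODE M21; only Mxi1 had a near copy (Gm13735), at 0 FPKM.

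The members and 16 further lists were chosen with earlier results of these data known. Named were all members, Fth1, up to 4 called genes of each list or else the 2 of smallest p, and the 5 genes most like Myc; some are counted but not named here. As 21 alternatives, the fit was repeated with pseudocounts of 0.1 and 5, without a filter, a filter at 5 FPKM, size factors, quantile normalization, TPM, no trend, arrayWeights, a replicate block, covariates for ribosomal RNA share and Y-linked reads, limma-voom on recovered reads, protein-coding genes alone, and each library left out.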

Additional observations from a re-analysis of the deposited data

Results flagged for a closer look

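Among 39 genes examined for a library far from the rest of the Fth1-deleted group, 2 had one, where chance gives about 1 in 20. Cdkn1a, one of the genes repressed by Myc, had 18.8 FPKM in Fth1-deleted 1 and 4.66 to 6.83 in the other Fth1-deleted libraries, a gap of 0.847 of the group's range. Cd68, a monocyte and macrophage marker, had 26.0 FPKM in Fth1-deleted 1 and 20.1 to 20.8 in the others, a gap of 0.886 of the range. No network member had such a library.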

How the results depend on the processing

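Of the 10 members 0 were called under all 21 alternatives (unadjusted p under 0.05 in 3 for Mga and 3 for Mxd3), and 182 of their 209 log2 differences kept their sign. The sign turned for Mycn with quantile normalization (-0.00098), TPM (-0.012), the ribosomal RNA covariate (-0.51) and the Y-linked term (-0.093), for Max with quantile normalization (-0.024), TPM (-0.043) and the Y-linked term (-0.056), and for Mxi1 with TPM (-0.051), arrayWeights (-0.019), the replicate block (-0.076) and the ribosomal RNA covariate (-0.19). It also turned for Mycl with arrayWeights (0.077) and the replicate block (0.30), and with the ribosomal RNA covariate for Mxd1 (-0.45), Mnt (0.014) and the NK cell marker Klrb1c (0.94). With each library left out, the ranges were -0.16 to 0.28 for Mycn, -1.15 to 0.38 for Mycl, -0.067 to 0.12 for Max, -0.16 to 0.18 for Mxi1, -0.091 to 1.93 for Mxd3 and -0.73 to 0.050 for Mxd4. Without a turn of sign they were 0.04 to 0.34 for Myc, 0.0088 to 0.38 for Mxd1, -0.45 to -0.14 for Mnt and -0.85 to -0.34 for Mga. The cause was not tested.

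Genes called over all genes, 8 with all libraries, numbered 0 with no filter, with limma-voom and with the replicate block (1504, 1471 and 987 at an unadjusted p under 0.05), 17 without a trend and with the Y-linked term, 4 among protein-coding genes alone, and 0 to 19 with 1 library left out (0 without control 3, 1 without Fth1-deleted 3, 13 without control 2, 19 without control 1). Txnip lost its call with the replicate block (adjusted p = 0.684). Pairing by replicate number was not seen: same-numbered deviations correlated at 0.01, 0.06 and -0.04, within the -0.09 to 0.08 of differently numbered libraries. Values all this near 0 cannot exclude a pairing. The Y-linked and ribosomal RNA terms rest on few libraries within each group. The ribosomal RNA share did not overlap between the groups, so its term cannot be cleanly separated from the deletion. Mycl and Mxd3 rest on 0 to 261 reads, and counting alone would give coefficients of variation of 10.5% and 7.72%.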

Other observations

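The spread of Myc and Mycn between libraries differed between the groups more than their means did. The coefficient of variation of Myc was 21.9% among controls and 8.58% among Fth1-deleted libraries, and that of Mycn was 30.3% and 6.61%, where reads alone would give 1.40% and 1.56%. The median over genes with a mean of at least 10 FPKM was 27.7% and 23.3%. Of the 10 members, 6 had the larger coefficient in control, so the pattern did not hold for the network as a whole. With 3 and 4 libraries this difference in spread was not tested.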
